A study of Mus musculus with 18 samples.

Results

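The lysosomal hydrolases and acidification genes are 31 genes, chosen by name for their known role in the lysosome out of 24614 genes in the deposited tables. They comprise 8 glycosidases, 3 sulfatases, 5 lipid hydrolases and sphingolipid activator proteins, 1 thioesterase, 1 peptidase, 6 genes of the vacuolar proton pump (V-ATPase), 6 membrane proteins, channels and transporters, and the regulator Tfeb. All 31 passed the filter on low counts and were tested. RNA was sequenced from conventional dendritic cells (cDC) of the spleens of ADAM10-deficient (KO) and wild-type (WT) C57BL/6 mice. In each genotype 3 populations were sorted: cDC2 with CD4 (CD4+ cDC2), cDC2 with neither CD4 nor CD8 (CD4-CD8- cDC2) and cDC1 with CD8 (CD8+ cDC1), all living cells with CD11c and MHC class II, with 3 libraries per genotype and population (18 in all). The labels give neither the way ADAM10 was removed, nor the cells it was removed from, nor the age and sex of the mice. Nothing in them says that the libraries of a group stem from different mice, so each p-value rests on the spread among these libraries alone, part of which may be technical.

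Lysosomes are acidic compartments in which hydrolases take apart sugars, lipids, sulfated glycans and proteins. The V-ATPase pumps protons across the lysosomal membrane, and its membrane sector anchors the cytosolic sector that splits ATP. The transcription factor TFEB binds a short palindromic DNA element in the promoters of many lysosomal genes and raises their transcription. In dendritic cells, acidity and hydrolase content help set how fast a captured antigen is degraded and how much is left for presentation on MHC molecules, and cDC1 are known for mild degradation that favours presentation of captured antigen on MHC class I.

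The libraries held 12358884 to 19557469 estimated counts each. Adam10 itself had 41.8, 41.6 and 45.9 CPM (counts scaled to a common library size, after TMM) in KO libraries of CD4+ cDC2, against 82.9, 80.5 and 129.5 CPM in WT libraries. It had 47.4, 41.7 and 44.6 CPM in KO and 90.9, 88.3 and 138 CPM in WT CD4-CD8- cDC2, and 28.7, 31.03 and 36.4 CPM in KO and 57.0, 58.3 and 99.0 CPM in WT CD8+ cDC1. Adam10 RNA was thus lower in each KO group but was not lost (log2 fold changes -1.18, -1.25 and -1.15), and the WT libraries numbered 3 lay above the other WT libraries in every population. The sorted populations carried their defining markers: Cd4 averaged 433 ± 31.2 CPM in KO and 443 ± 37.2 CPM in WT CD4+ cDC2 and under 10 CPM elsewhere, and Cd8a averaged 588 ± 73.9 CPM in KO and 1060.4 ± 69.8 CPM in WT CD8+ cDC1 (SD, n = 3 each). The share of counts from ribosomal protein genes was 10.8% in KO and 9.49% in WT CD4+ cDC2, 10.7% in KO and 8.83% in WT CD4-CD8- cDC2, and 11.3% in KO and 9.50% in WT CD8+ cDC1. In bulk samples, a change in the share of a cell type and a change of RNA per cell cannot be told apart.

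Positions are those of GRCm38. Among the genes that the results turn on, Atp6v0a1 at chr11:101009452-101063719 (+ strand), Lamp1 at chr8:13159161-13175338 (+ strand) and Lamp2 at chrX:38401357-38456454 (- strand) encode membrane proteins of the lysosome. Arsb at chr13:93771630-93943016 (+ strand), Hexa at chr9:59539540-59565109 (+ strand) and Psap at chr10:60277627-60302597 (+ strand) encode a sulfatase, a glycosidase subunit and the saposin precursor. Tfeb at chr17:47737030-47792419 (+ strand) encodes the regulator, and Ppt1 at chr4:122836242-122859175 (+ strand) the thioesterase. Values are sums over all transcripts of a gene, exons and untranslated ends included.

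Levels of the 31 genes were compared in TPM, which are scaled for transcript length. Psap, which encodes prosaposin, the precursor of the saposins that present sphingolipids to their hydrolases, ranked first in every group. It averaged 1561 ± 88.4 TPM in KO and 869 ± 34.4 TPM in WT CD4+ cDC2, 1279 ± 53.1 TPM in KO and 1101 ± 117 TPM in WT CD4-CD8- cDC2, and 2956 ± 229 TPM in KO and 2768 ± 116 TPM in WT CD8+ cDC1 (SD, n = 3 each). The other members spanned a wide range below it, and the median member lay between 22.6 TPM in KO CD8+ cDC1 and 33.4 TPM in KO CD4-CD8- cDC2. Summed over all 31 genes, the level was 3094 ± 34.8 TPM in KO and 2333 ± 35.6 TPM in WT CD4+ cDC2. The sum was 2867 ± 80.0 TPM in KO and 2687 ± 228 TPM in WT CD4-CD8- cDC2, and 5085 ± 425 TPM in KO and 5090.3 ± 99.1 TPM in WT CD8+ cDC1. Without Psap, the other 30 genes summed to 1533 ± 69.9 TPM in KO and 1464 ± 9.23 TPM in WT CD4+ cDC2, so most of the difference between the genotypes in that sum lay in Psap alone. In CD8+ cDC1 the 30 genes summed to 2128 ± 196 TPM in KO and 2322 ± 22.2 TPM in WT cells. These sums carry no TMM scaling. On log2(TPM + 1), the median log2 fold change over all genes tested was -0.125 in KO against WT CD8+ cDC1. It was -0.088 in CD4+ cDC2 and -0.182 in CD4-CD8- cDC2. Sums of KO and WT are thus not on a common scale, and the lower KO sum in CD8+ cDC1 cannot be read as particular to these genes.

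The order of the genes below Psap differed between populations. Ppt1, the palmitoyl-protein thioesterase that removes fatty acids from proteins bound for degradation, ranked 2 in CD8+ cDC1, with 780.2 ± 55.4 TPM in KO and 746 ± 13.9 TPM in WT cells, and 14 in CD4+ cDC2, with 34.6 ± 0.646 TPM in KO and 33.0 ± 0.477 TPM in WT cells. Gm2a, the activator protein that lifts GM2 ganglioside to hexosaminidase, ranked 2 in both cDC2 populations of each genotype. Lamp1, an abundant glycoprotein of the lysosomal membrane, ranked 3 among the members in KO CD4+ cDC2 (182 ± 19.3 TPM) and 8 in WT CD4+ cDC2 (83.9 ± 2.67 TPM). The regulator Tfeb ranked 11 in KO CD4+ cDC2 (54.3 ± 3.59 TPM) and 6 in WT CD4+ cDC2 (99.9 ± 8.25 TPM). At the other end, Arsa, Smpd1, Gla, Idua and Ctns were among the lowest members, and the lowest member of any group averaged 3.34 TPM.

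**Figure D1:**
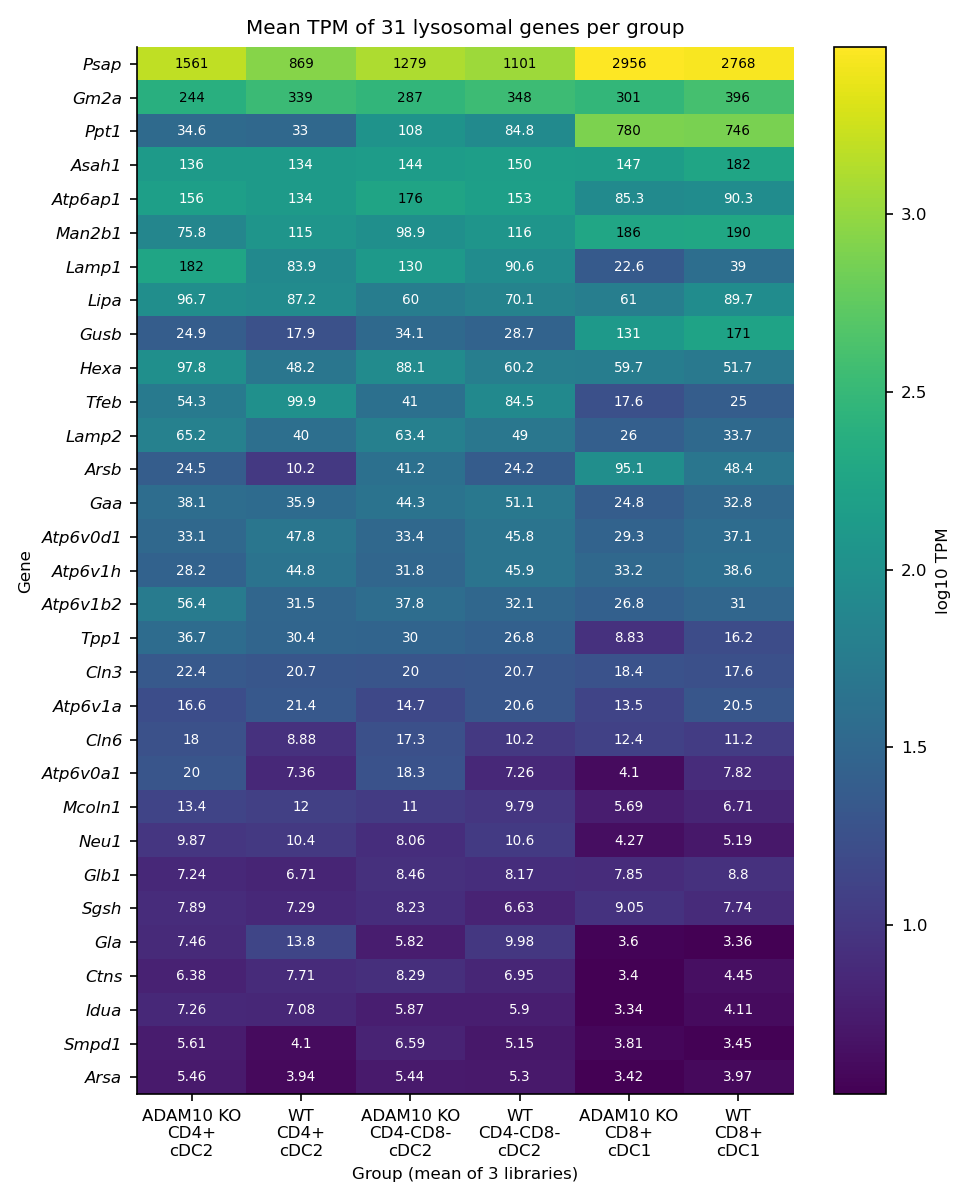
Mean TPM of the 31 genes (rows, highest mean first) in the 6 groups (columns, KO left of WT in each population), with the colour on a log10 scale and the mean printed in each cell (n = 3 libraries). Psap has the highest mean in every column, and Ppt1 runs from 780.2 TPM in KO and 746 TPM in WT CD8+ cDC1 to 34.6 TPM in KO and 33.0 TPM in WT CD4+ cDC2.

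The promoters of the members were searched for the element that TFEB binds, since Tfeb RNA was measured beside its potential target genes. RefSeq promoters (GRCm38.p6, 250 bases before to 50 bases after the start) were in the table for 28 of the 31 genes, and both strands were searched. The core CACGTG was found in 10 of these 28 genes, and in 8.09% of the 27025 genes in the table. GTCACGTG, which contains the core, was found in 8 of the 28 and in 2.55% of all genes, and TCACGTGA, which also contains it, in 5 of the 28 and in 1.12% of all genes. The stretches around the matches are shown for the 5 genes with a flanked core that had the largest called changes between the genotypes. They are written 5′ to 3′ along the gene's strand, with the matched letters in capitals:
Lamp1 (chr8:13159089-13159162, + strand): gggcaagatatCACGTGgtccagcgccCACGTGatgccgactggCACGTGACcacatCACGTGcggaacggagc
Gla (chrX:134601182-134601244, - strand): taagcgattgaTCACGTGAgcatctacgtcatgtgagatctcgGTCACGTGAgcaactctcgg
Arsa (chr15:89477424-89477453, - strand): ttcaactcagtGTCACGTGttgtctgctcc
Atp6v1a (chr16:44139373-44139402, - strand): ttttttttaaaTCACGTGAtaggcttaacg
Glb1 (chr9:114401017-114401046, + strand): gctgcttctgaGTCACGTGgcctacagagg
Lamp1 carries 4 cores in this stretch, which runs from 72 bases before the start to 2 bases after it. Gla, the gene of α-galactosidase A, carries 2 cores, and the stretch begins 239 bases before its start. The matches are letters in a window and do not show binding.

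In CD4+ cDC2, 24 of the 31 genes were called between KO and WT cells (edgeR's quasi-likelihood test, adjusted p under 0.05 over all genes), 17 higher and 7 lower in KO. Over all 13381 genes tested, 35.1% were called, 18.5% higher and 16.6% lower. The median log2 fold change was 0.30 over the 31 genes and 0.016 over all genes. By role, 5 of 8 glycosidases rose and 2 fell, 2 of 3 sulfatases rose, and 3 of 5 lipid hydrolases and activators rose and 1 fell. Of the V-ATPase genes 3 rose and 3 fell, 3 of 6 membrane genes rose, the peptidase Tpp1 rose, and Tfeb fell. Every called gene of the 31 had KO and WT libraries that did not overlap in CPM. Overlap was looked at in the 31 genes alone, here and below, so how common this is among all called genes is not known.

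Among the glycosidases and sulfatases, Arsb and Hexa rose most. Arsb encodes arylsulfatase B, which removes sulfate from dermatan and chondroitin sulfate. It had 209, 231 and 254 CPM in KO libraries, against 87.9, 83.3 and 83.5 CPM in WT libraries. The genotypes were far apart, and the KO libraries varied more than the WT libraries (log2 fold change 1.44, SE 0.12, adjusted p = 1.38e-07). Hexa, the α subunit of β-hexosaminidase, had 445, 490.2 and 471 CPM in KO libraries, against 180.3, 229 and 203 CPM in WT libraries. All KO libraries were higher than every WT library (log2 fold change 1.20, SE 0.10, adjusted p = 9.71e-08). Gusb, the β-glucuronidase, had 127, 141 and 118 CPM in KO libraries, against 76.4, 85.5 and 83.8 CPM in WT libraries, and rose as well (log2 fold change 0.65, SE 0.089, adjusted p = 2.36e-05). Gaa, the acid α-glucosidase that degrades glycogen, had 95.9, 99.7 and 82.8 CPM in KO libraries, against 62.0, 64.8 and 63.3 CPM in WT libraries (log2 fold change 0.55, SE 0.090, adjusted p = 1.31e-04). Rises were also called for Arsa (log2 fold change 0.57), the α-L-iduronidase Idua (0.46) and the β-galactosidase Glb1 (0.27).

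Gla and Man2b1 were the glycosidases that fell. Gla had 14.2, 20.8 and 23.1 CPM in KO libraries, against 43.8, 28.2 and 24.8 CPM in WT libraries. The lowest WT library lay just above the highest KO library (log2 fold change -0.74, SE 0.21, adjusted p = 0.00952). The call for Gla was lost without KO replicate 1 (-0.56, adjusted p = 0.0508) or WT replicate 1 (-0.46, adjusted p = 0.0796). Man2b1, a lysosomal α-mannosidase, had 601, 494 and 514 CPM in KO libraries, against 700.3, 752 and 729.5 CPM in WT libraries. Its groups did not overlap, with KO below WT (log2 fold change -0.44, SE 0.083, adjusted p = 5.39e-04). The sialidase Neu1 was not called (0.082, adjusted p = 0.575), nor was the sulfamidase Sgsh (0.19, adjusted p = 0.0545), although the KO libraries of Sgsh all lay above its WT libraries.

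Of the lipid genes, Psap rose most. It had 9195, 10424 and 8737 CPM in KO libraries, against 4657, 4741 and 4789 CPM in WT libraries, so all KO libraries were above all WT libraries (log2 fold change 1.00, SE 0.070, adjusted p = 1.27e-08). The acid sphingomyelinase Smpd1 (log2 fold change 0.43) and the acid lipase Lipa (0.30) rose less. Gm2a fell, with 2204, 1886 and 1877 CPM in KO libraries, against 2399.6, 2682 and 2492 CPM in WT libraries (log2 fold change -0.34, SE 0.078, adjusted p = 0.00232). The acid ceramidase Asah1 was not called (0.086, adjusted p = 0.353). The peptidase Tpp1, which trims tripeptides from the ends of proteins, rose (log2 fold change 0.36, SE 0.11, adjusted p = 0.0141), and Ppt1 was not called (0.20, adjusted p = 0.217). The call for Lipa was lost without KO replicate 3 (0.23, adjusted p = 0.0599), and that for Tpp1 without KO replicate 3 (0.30, adjusted p = 0.0637) or WT replicate 1 (0.33, adjusted p = 0.0537).

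The V-ATPase genes moved in both directions. Atp6v0a1, a subunit of the membrane sector, had the largest rise of all 31 genes, with 74.4, 73.0 and 74.6 CPM in KO libraries, against 23.0, 21.4 and 20.2 CPM in WT libraries. The lowest KO library was well above the highest WT library (log2 fold change 1.78, SE 0.099, adjusted p = 1.35e-09). Atp6v1b2, a nucleotide-binding subunit of the cytosolic sector, had 224, 260.2 and 249.5 CPM in KO libraries, against 133, 136 and 126 CPM in WT libraries (log2 fold change 0.89, SE 0.072, adjusted p = 6.72e-08). The accessory subunit Atp6ap1 rose less (log2 fold change 0.37). Atp6v1h, a regulatory subunit of the cytosolic sector, had 73.8, 60.3 and 73.5 CPM in KO libraries, against 97.0, 94.7 and 89.1 CPM in WT libraries, and KO was lower in every library (log2 fold change -0.44, SE 0.093, adjusted p = 0.00144). Atp6v0d1, a further subunit of the membrane sector, had 124, 109 and 108 CPM in KO libraries, against 145, 151 and 134 CPM in WT libraries, again with KO below WT (log2 fold change -0.34, SE 0.085, adjusted p = 0.00524). The catalytic subunit Atp6v1a fell by the least (-0.26), and its call was lost without KO replicate 2 (-0.17, adjusted p = 0.152), WT replicate 2 (-0.26, adjusted p = 0.0745) or WT replicate 3 (-0.24, adjusted p = 0.0885).

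Lamp1, Cln6 and Lamp2 were the membrane genes that rose. Lamp1 had 873, 784 and 915 CPM in KO libraries, against 367, 361 and 337 CPM in WT libraries. Each KO library lay well above every WT library (log2 fold change 1.27, SE 0.11, adjusted p = 2.29e-07). Cln6, a membrane protein of the endoplasmic reticulum that helps lysosomal enzymes leave it, had 54.7, 57.3 and 47.7 CPM in KO libraries, against 25.9, 23.6 and 25.0 CPM in WT libraries, and did not overlap between genotypes (log2 fold change 1.10, SE 0.11, adjusted p = 6.18e-07). Lamp2, the partner glycoprotein of Lamp1, had 332, 253 and 329 CPM in KO libraries, against 177, 171 and 176 CPM in WT libraries (log2 fold change 0.80, SE 0.095, adjusted p = 4.75e-06). Mcoln1, the lysosomal cation channel TRPML1, had 19.9, 26.1 and 20.6 CPM in KO libraries, against 20.5, 18.3 and 17.2 CPM in WT libraries. Its groups overlapped and it was not called (log2 fold change 0.25, SE 0.10, adjusted p = 0.0752). Cln3 (0.15, adjusted p = 0.315) and the cystine exporter Ctns (0.17, adjusted p = 0.259) were not called either. Tfeb fell, with 93.1, 125 and 88.4 CPM in KO libraries, against 153, 164 and 147 CPM in WT libraries, with no overlap (log2 fold change -0.60, SE 0.12, adjusted p = 6.27e-04).

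**Figure D2:**
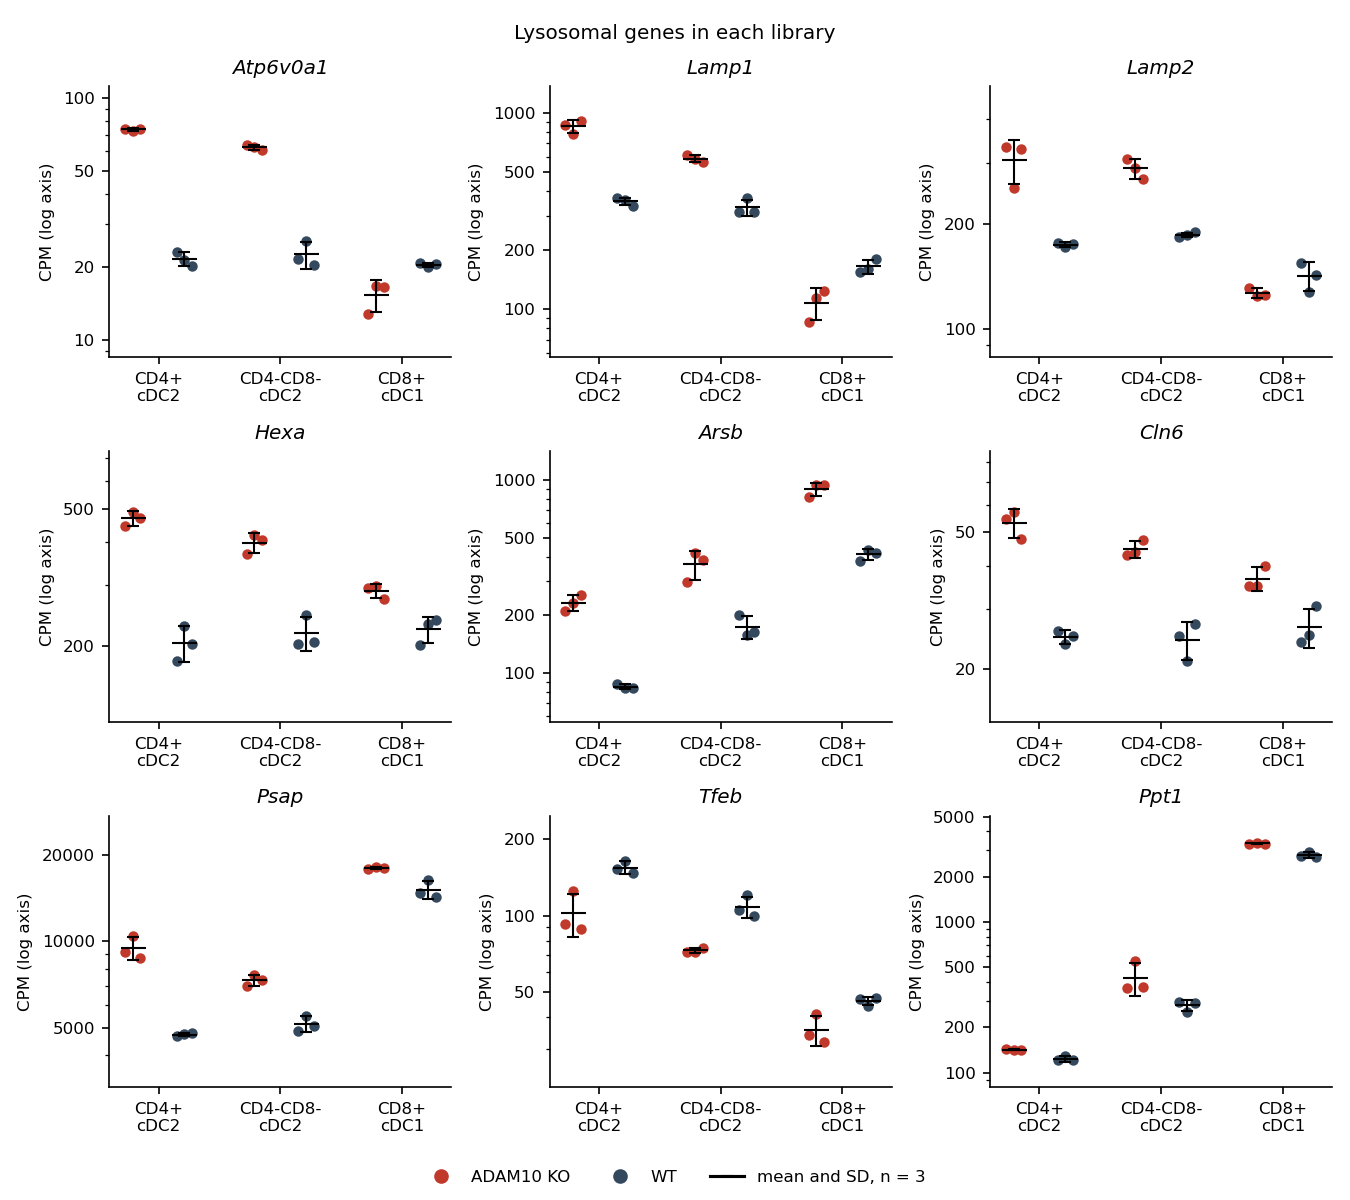
CPM of each library (points, log axis) for 9 of the genes, with KO left of WT in each population and a horizontal mark at the mean with its SD (n = 3 libraries). Atp6v0a1, Lamp1 and Lamp2 stand higher in KO than in WT in both cDC2 populations, Lamp1 and Atp6v0a1 stand lower in KO than in WT CD8+ cDC1, and Tfeb stands lower in KO in all 3 populations.

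Of the 24 calls in CD4+ cDC2, 15 were also made under each of 10 alternative settings. Gaa, Idua, Lipa, Smpd1 and Tpp1 were not called under the 4 settings that use transcript length (adjusted p 0.0538 to 0.932). Gla was not called under a pair of these settings (adjusted p 0.0632 to 0.0810), and Atp6ap1, Glb1 and Atp6v1a were not called under 2 to 5 settings (adjusted p 0.0530 to 0.498). On log2(TPM + 1) without TMM, 10 of the 31 genes were called higher and 6 lower, and 33.4% of all calls were higher, against 52.8% in the main test. Markers of other cells moved with the genotype in the same libraries. The 17 red pulp macrophage markers summed to 1597 to 1907 CPM in KO and 743 to 852 CPM in WT CD4+ cDC2, and 12 rose and 1 fell. None was at 0, and the defining factor Spic averaged 5.50 ± 0.698 CPM in KO and 13.4 ± 2.94 CPM in WT cells and fell (-1.29). The 15 monocyte markers summed to 14373 to 18515 CPM in KO and 5334 to 6335 CPM in WT CD4+ cDC2, with 10 higher, 3 lower and none at 0. The 9 cDC1 markers, among them the lysosomal amidase gene Naaa, summed to 663 to 722 CPM in KO and 316 to 354 CPM in WT CD4+ cDC2, with 5 higher, none lower and none at 0. All these sums were higher in every KO library than in any WT library. The 6 erythroid markers, mostly globin genes, summed to 72.1 to 249.5 CPM in KO and 18.2 to 46.6 CPM in WT CD4+ cDC2. Of the 5 erythroid markers tested 4 rose. Of the 9 markers of cDC2 themselves, 3 rose and 3 fell. Their sum was also higher in every KO library, with 3212 to 3628 CPM in KO and 2390 to 2547 CPM in WT cells. The 7 markers shared by all cDC summed to 53421 to 60049 CPM in KO and 34374 to 36148.5 CPM in WT cells (3 rose, 2 fell). Sums were also higher in every KO library for markers of neutrophils, NK cells and pDC (1, 1 and 3 markers rose, none fell), and lower for those of T cells (1 rose, 2 fell) and stroma (1 fell). The part of these cell types in the lysosomal genes was not tested.

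In CD4-CD8- cDC2, 21 of the 31 genes were called, 19 higher and 2 lower in KO, beside 25.9% of all genes (14.6% higher, 11.3% lower). The median log2 fold change was 0.38 over the 31 genes and 0.021 over all genes. Of the genes that rose, 16 had also risen in CD4+ cDC2, and the 2 that fell, Gla and Tfeb, had fallen there. The share of all genes called alike in both cDC2 populations was not counted. By role, 5 of 8 glycosidases, 2 of 3 sulfatases, 3 of 5 lipid genes, both Ppt1 and Tpp1, 3 of 6 V-ATPase genes and 4 of 6 membrane genes rose. KO and WT libraries were apart for every called gene.

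Atp6v0a1 again had the largest rise, with 63.5, 62.4 and 61.1 CPM in KO libraries, against 21.6, 25.7 and 20.3 CPM in WT libraries (log2 fold change 1.47, SE 0.099, adjusted p = 3.71e-08). Arsb had 295, 419 and 388 CPM in KO libraries, against 200.2, 157 and 163 CPM in WT libraries, with all KO libraries higher (log2 fold change 1.08, SE 0.12, adjusted p = 8.10e-06). Hexa had 369, 421 and 405 CPM in KO libraries, against 203, 246 and 205 CPM in WT libraries (log2 fold change 0.87, SE 0.099, adjusted p = 8.82e-06). The KO libraries of Hexa lay above its WT libraries by more than the spread within either group. Cln6 had 42.9, 43.7 and 47.5 CPM in KO libraries, against 25.0, 21.1 and 27.1 CPM in WT libraries (log2 fold change 0.87, SE 0.11, adjusted p = 2.11e-05). Lamp1 had 609, 583 and 563 CPM in KO libraries, against 312, 367 and 314 CPM in WT libraries, and Lamp2 had 308, 289.9 and 270.0 CPM in KO libraries, against 184, 186 and 189 CPM in WT libraries. Both RNAs were higher in every KO library (Lamp1 log2 fold change 0.82, SE 0.11, adjusted p = 5.52e-05, and Lamp2 log2 fold change 0.64, SE 0.095, adjusted p = 1.12e-04).

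Psap had 6975, 7615 and 7309 CPM in KO libraries, against 4847, 5508 and 5074 CPM in WT libraries in this population. It rose, without overlap (log2 fold change 0.51, SE 0.069, adjusted p = 5.04e-05). Ppt1 had 366, 549 and 369.8 CPM in KO libraries, against 295, 252 and 291 CPM in WT libraries, and rose here (log2 fold change 0.62, SE 0.12, adjusted p = 9.30e-04), as did Smpd1 (log2 fold change 0.66), Gusb (0.60) and Atp6v1b2 (0.57). The remaining rises were between 0.31 for Asah1 and 0.49 for Arsa. They also took in Atp6ap1 (0.46), Gaa (0.40), Idua (0.39), Ctns (0.38), Glb1 (0.35) and Tpp1 (0.31).

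Gla had 9.79, 13.4 and 10.9 CPM in KO libraries, against 23.0, 18.0 and 16.4 CPM in WT libraries, with KO below WT (log2 fold change -0.76, SE 0.21, adjusted p = 0.0145). Tfeb had 72.3, 72.4 and 74.8 CPM in KO libraries, against 105, 120.3 and 99.7 CPM in WT libraries. The genotypes were apart for Tfeb and KO was lower (log2 fold change -0.57, SE 0.12, adjusted p = 0.00168). Atp6v0d1 had 113, 103 and 97.3 CPM in KO libraries, against 111, 122 and 115 CPM in WT libraries, overlapped between genotypes and was not called (log2 fold change -0.15, SE 0.086, adjusted p = 0.230). Mcoln1 had 18.1, 19.3 and 17.3 CPM in KO libraries, against 16.1, 14.8 and 15.2 CPM in WT libraries, and was not called, although all KO libraries were above all WT libraries (log2 fold change 0.25, SE 0.11, adjusted p = 0.105). The other genes without a call were Man2b1, Neu1, Sgsh, Lipa, Gm2a, Atp6v1a, Atp6v1h and Cln3, with log2 fold changes between -0.20 and 0.13.

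Of the 21 calls, 8 were made under every alternative setting: Atp6v0a1, Arsb, Hexa, Cln6, Lamp1, Lamp2, Ppt1 and Tfeb. The other 13 were each lost under 2 to 6 of the 10 settings (adjusted p 0.0535 to 0.974). On TPM without further scaling, Gaa ran the other way (-0.20 with a pseudocount of 1), as did Asah1 (-0.053), and neither was called. On log2(TPM + 1) without TMM, 7 of the 31 genes were called higher and 4 lower, and 16.9% of all calls were higher, against 56.3% in the main test. Leaving out a library ended 3 calls. Tpp1 was not called without any one of the 6 libraries (log2 fold changes 0.27 to 0.33, adjusted p 0.0646 to 0.149), Gla without KO replicate 1 (-0.66, adjusted p = 0.0628) or WT replicate 1 (-0.63, adjusted p = 0.0641), and Ctns without KO replicate 1 (0.32, adjusted p = 0.0744), WT replicate 2 (0.30, adjusted p = 0.10) or WT replicate 3 (0.35, adjusted p = 0.0670). The 17 red pulp macrophage markers summed to 907 to 1267 CPM in KO and 559.6 to 622 CPM in WT CD4-CD8- cDC2 (7 higher, 1 lower, none at 0; Spic -1.78). The 15 monocyte markers summed to 10523 to 13966 CPM in KO and 4943 to 5200.2 CPM in WT cells (8 higher, 3 lower, none at 0). The 8 NK cell markers summed to 143 to 201 CPM in KO and 339 to 721 CPM in WT cells, and 7 fell. The 9 T cell markers summed to 32.8 to 72.9 CPM in KO and 256 to 429.9 CPM in WT cells, and all 9 fell. The 9 cDC1 markers summed to 1438 to 2052.5 CPM in KO and 829 to 978 CPM in WT CD4-CD8- cDC2, and 6 rose, none fell and none was at 0. The genes that rose in this population differed both ways between WT CD4-CD8- cDC2 and WT CD8+ cDC1, several by little. Mean CPM was lower in CD4-CD8- cDC2 for Ppt1 and Arsb (log2 fold changes -3.32 and -1.25), Gusb, Psap, Asah1, Glb1, Gaa, Atp6v1b2, Cln6 and Hexa. It was higher there for Lamp1 (331 against 166 CPM), Tpp1 (52.3 against 29.6 CPM), Lamp2, Atp6ap1, Ctns, Atp6v0a1, Smpd1, Arsa and Idua. The erythroid markers summed to 35.1 to 213 CPM in KO and 33.3 to 68.2 CPM in WT cells, so the groups overlapped, and none of 5 was called. Of the 9 markers of cDC2 themselves, 3 rose and 4 fell. Their sum was higher in every KO library, with 2839 to 3168 CPM in KO and 1851 to 2035 CPM in WT cells. The 7 markers shared by all cDC summed to 43394 to 47723 CPM in KO and 26369 to 30049 CPM in WT cells (3 rose, 1 fell). Sums were also higher in every KO library for pDC markers (3 rose) and lower for stromal markers (1 fell). The part of these cell types in the lysosomal genes was not tested.

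In CD8+ cDC1, 13 of the 31 genes were called, 5 higher and 8 lower in KO, beside 15.7% of all genes (7.01% higher, 8.68% lower). The median log2 fold change was -0.051 over the 31 genes and 0.003 over all genes. Both Arsb and Sgsh of the 3 sulfatases rose, 1 glycosidase rose and 1 fell, and 1 lipid gene rose and 1 fell. Of the V-ATPase genes 2 fell and none rose, and of the membrane genes 1 rose and 2 fell. Tpp1 and Tfeb fell. KO and WT libraries did not overlap for any of the 13 genes.

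Arsb had the largest rise, with 821, 940.2 and 946 CPM in KO libraries, against 383, 434 and 418 CPM in WT libraries (log2 fold change 1.13, SE 0.12, adjusted p = 6.94e-06). Cln6 had 34.9, 35.0 and 39.9 CPM in KO libraries, against 24.0, 25.2 and 30.4 CPM in WT libraries, with KO higher throughout (log2 fold change 0.47, SE 0.11, adjusted p = 0.00686). Hexa had 294, 298 and 273 CPM in KO libraries, against 201, 231 and 237 CPM in WT libraries (log2 fold change 0.37, SE 0.099, adjusted p = 0.0169). The highest WT library of Hexa lay close under the lowest KO library. Sgsh, which desulfates heparan sulfate, had 63.3, 62.3 and 69.6 CPM in KO libraries, against 50.8, 55.8 and 54.0 CPM in WT libraries, and rose (log2 fold change 0.28, SE 0.072, adjusted p = 0.0132). Psap had 17867, 18173 and 18018 CPM in KO libraries, against 14750.4, 16270.3 and 14253 CPM in WT libraries, with every KO library above the WT libraries (log2 fold change 0.26, SE 0.069, adjusted p = 0.0174).

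Lamp1 had the largest fall, with 85.7, 114 and 124 CPM in KO libraries, against 156, 160.1 and 181 CPM in WT libraries. Every KO library was below every WT library (log2 fold change -0.62, SE 0.11, adjusted p = 0.00118). Gaa had 43.9, 47.1 and 53.1 CPM in KO libraries, against 64.1, 67.5 and 74.6 CPM in WT libraries, and fell (log2 fold change -0.51, SE 0.091, adjusted p = 8.04e-04). Tpp1 had 17.5, 19.4 and 25.7 CPM in KO libraries, against 30.2, 26.6 and 32.0 CPM in WT libraries, with KO lower (log2 fold change -0.50, SE 0.11, adjusted p = 0.00515). The proton pump subunit Atp6v0a1 also fell here. It had 12.7, 16.7 and 16.5 CPM in KO libraries, against 20.7, 19.9 and 20.6 CPM in WT libraries, with narrow separation (log2 fold change -0.41, SE 0.10, adjusted p = 0.0109). Ctns had 14.9, 15.6 and 16.6 CPM in KO libraries, against 19.6, 18.8 and 23.2 CPM in WT libraries (log2 fold change -0.39, SE 0.11, adjusted p = 0.0286). Tfeb had 34.2, 41.0 and 31.9 CPM in KO libraries, against 47.3, 44.4 and 47.4 CPM in WT libraries (log2 fold change -0.38, SE 0.12, adjusted p = 0.0439). Both Ctns and Tfeb were lower in each KO library than in any WT library. The smallest falls were those of Atp6v1a (-0.35) and Lipa (-0.27).

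Lamp2 had 131, 125 and 125 CPM in KO libraries, against 155, 128 and 143 CPM in WT libraries, so the groups overlapped and there was no call (log2 fold change -0.16, SE 0.095, adjusted p = 0.301). Mcoln1 had 11.4, 12.1 and 11.0 CPM in KO libraries, against 11.7, 11.9 and 11.5 CPM in WT libraries (log2 fold change -0.024, SE 0.11, adjusted p = 0.929), and Atp6v0d1 had 113, 97.0 and 94.2 CPM in KO libraries, against 116, 121 and 110.2 CPM in WT libraries (log2 fold change -0.19, SE 0.086, adjusted p = 0.164). Neither gene separated the genotypes. The other genes without a call had log2 fold changes between -0.22 for Gusb and 0.26 for Ppt1.

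Calls in CD8+ cDC1 were often lost under other settings, and 2 of the 13 were made under all of them. Lamp1 and Arsb were called under every alternative and without each library. Without 1 library, Atp6v0a1 was not called when KO replicate 1 was left out (-0.30, adjusted p = 0.0514), and Atp6v1a when KO replicate 2 was left out (-0.32, adjusted p = 0.0564). Sgsh was not called without KO replicate 3 (0.23, adjusted p = 0.0556) or WT replicate 1 (0.24, adjusted p = 0.0672), Psap without KO replicate 2 (0.25, adjusted p = 0.0541), WT replicate 1 (0.24, adjusted p = 0.0666) or WT replicate 3 (0.22, adjusted p = 0.0858), Hexa without KO replicate 1 (0.35, adjusted p = 0.0506), KO replicate 2 (0.35, adjusted p = 0.0605) or WT replicate 1 (0.30, adjusted p = 0.0903), and Ctns without KO replicate 1 (-0.35, adjusted p = 0.0964), KO replicate 2 (-0.38, adjusted p = 0.0756) or WT replicate 3 (-0.29, adjusted p = 0.142). Tfeb was not called without any library other than KO replicate 2 (log2 fold changes -0.42 to -0.30, adjusted p 0.0597 to 0.142), nor Lipa without KO replicate 1 or any WT library (log2 fold changes -0.28 to -0.19, adjusted p 0.0711 to 0.179). Atp6v0a1 was also not called under 5 of the 10 settings (adjusted p 0.0825 to 0.262), and Gaa and Cln6 under the 4 settings that use transcript length (adjusted p 0.163 to 0.611). The other 8 genes were not called under 1 to 6 settings (adjusted p 0.0507 to 0.613). On log2(TPM + 1) without TMM, 1 of the 31 genes was called higher and 9 lower, and 16.2% of all calls were higher, against 44.7% in the main test. The red pulp macrophage markers summed to 364 to 524 CPM in KO and 216 to 299 CPM in WT CD8+ cDC1 (3 higher, 3 lower of 17, none at 0). The monocyte markers summed to 2292 to 3024 CPM in KO and 1933 to 2420.3 CPM in WT cells (2 higher, 5 lower of 15, none at 0). The 9 cDC2 markers summed to 61.1 to 114 CPM in KO and 299.8 to 449.9 CPM in WT CD8+ cDC1. Of these 6 fell, among them Sirpa (log2 fold change -2.06) and Irf4 (-2.36), 1 rose and none was at 0. Of the 8 lysosomal genes that fell here, Lamp1, Tpp1, Tfeb and Ctns were higher in both WT cDC2 populations than in WT CD8+ cDC1 (log2 fold changes of CD4+ cDC2 over CD8+ cDC1 1.10, 1.08, 1.74 and 0.44), and Atp6v0a1, Atp6v1a, Gaa and Lipa were not called higher in either (0.080, 0.022, -0.12 and -0.041). The 6 erythroid markers summed to 155 to 301 CPM in KO and 63.0 to 80.7 CPM in WT CD8+ cDC1, and 3 of the 5 tested rose. Of the 9 cDC1 markers, 2 rose and 1 fell. Their sum was higher in every KO library, with 10057 to 11570 CPM in KO and 7365 to 8892 CPM in WT cells. The 7 markers shared by all cDC summed to 38864.5 to 43294 CPM in KO and 34481 to 34841 CPM in WT cells (1 rose, 2 fell). As for cDC2 markers, sums were lower in every KO library for markers of T cells (3 fell), pDC (1 rose, 3 fell) and stroma (2 fell). The part of these cell types in the lysosomal genes was not tested.

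**Figure D3:**
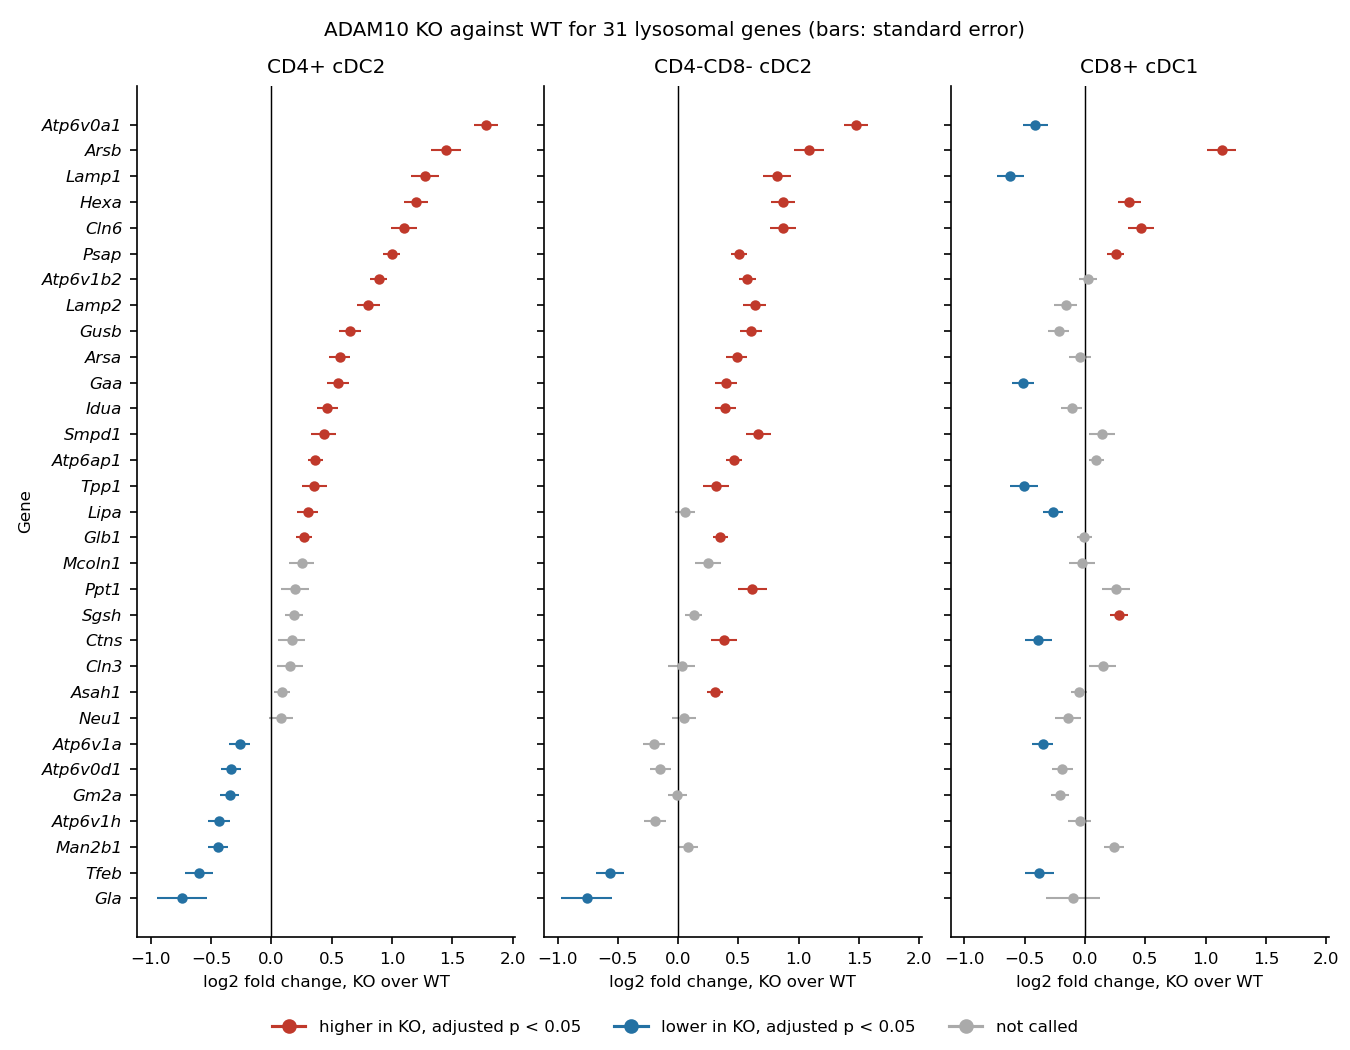
Log2 fold change of KO over WT (points) with its SE (bars) for the 31 genes, ordered by the value in CD4+ cDC2, with 1 panel for each population. Red marks genes called higher in KO, blue genes called lower in KO, and grey genes not called. Atp6v0a1 and Lamp1 lie at 1.78 and 1.27 in CD4+ cDC2, at 1.47 and 0.82 in CD4-CD8- cDC2, and at -0.41 and -0.62 in CD8+ cDC1.

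Across the 3 populations, 28 of the 31 genes were called at least once, beside 46.2% of all genes. Arsb, Cln6, Hexa and Psap rose in all 3 (beside 3% of all genes), and Tfeb was the 1 gene that fell in all 3 (beside 2.35%). Atp6v0a1, Gaa, Lamp1 and Tpp1 rose in both cDC2 populations and fell in CD8+ cDC1 (beside 1.17%). These are calls of the main test. In CD8+ cDC1, Arsb and Lamp1 alone among them kept the call under every alternative and without each library. In CD4-CD8- cDC2, Gaa ran the other way on TPM without TMM, and Tpp1 lost its call whichever library was left out. Cln3, Mcoln1 and Neu1 were called in no population. Whether an effect of the genotype differed between populations was tested as an interaction on the same libraries.

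Between CD4+ cDC2 and CD8+ cDC1, the effect of the genotype differed for 18 of the 31 genes, beside 22.1% of all genes (12.6% with the more positive effect in CD4+ cDC2, 9.54% with the more negative). It was more positive in CD4+ cDC2 for 16 and more negative for 2. Atp6v0a1 differed most (difference of log2 fold changes 2.19, SE 0.14, adjusted p = 3.41e-08), then Lamp1 (1.89, SE 0.16, adjusted p = 4.81e-07) and Gaa (1.07, SE 0.13, adjusted p = 1.53e-05). These 3 genes rose in KO CD4+ cDC2 and fell in KO CD8+ cDC1. The interaction of Gaa was not called under the 4 settings that use transcript length (adjusted p 0.343 to 0.402). Man2b1 and Atp6v1h had the more negative effect in CD4+ cDC2. Man2b1 had 1399, 1401 and 1596 CPM in KO libraries, against 1191, 1296 and 1242 CPM in WT libraries in CD8+ cDC1, where KO lay above WT without a call, against a fall in CD4+ cDC2 (difference -0.68, adjusted p = 4.86e-04). Atp6v1h had 89.2, 83.3 and 77.5 CPM in KO libraries, against 94.9, 82.9 and 80.2 CPM in WT libraries in CD8+ cDC1, and the genotypes overlapped there (difference -0.39, adjusted p = 0.0422). Its interaction was not called without KO CD4+ replicate 2, WT CD4+ replicates 1 or 2, KO CD8+ replicates 1 or 2, or WT CD8+ replicates 2 or 3 (log2 fold changes -0.39 to -0.30, adjusted p 0.0710 to 0.104), nor under 4 of the 10 settings (adjusted p 0.0568 to 0.109).

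Between CD4-CD8- cDC2 and CD8+ cDC1, the effect differed for 15 of the 31 genes, all with the more positive effect in CD4-CD8- cDC2, beside 13.2% of all genes (8.24% more positive, 4.92% more negative). Atp6v0a1 (1.89, SE 0.14, adjusted p = 4.37e-07), Lamp1 (1.44, SE 0.16, adjusted p = 1.92e-05) and Gaa (0.91, SE 0.13, adjusted p = 1.70e-04) again differed most (differences of log2 fold changes). These interactions use the same CD8+ cDC1 libraries as those of CD4+ cDC2. Between the cDC2 populations, 2 of the 31 genes differed, beside 3.76% of all genes (2.48% higher, 1.28% lower). Psap rose by more in CD4+ cDC2 than in CD4-CD8- cDC2 (0.49, SE 0.097, adjusted p = 0.00801). Man2b1 fell in CD4+ cDC2, and in CD4-CD8- cDC2 had 693, 671 and 681 CPM in KO libraries, against 585, 693 and 657 CPM in WT libraries, with overlapping groups (-0.52, SE 0.12, adjusted p = 0.0193). The call for Man2b1 was lost without KO CD4+ replicate 3, WT CD4+ replicate 2, or WT CD4-CD8- replicate 1 (log2 fold changes -0.49 to -0.44, adjusted p 0.0544 to 0.0688), and under 3 of the 10 settings (adjusted p 0.0538 to 0.343). The interaction of Gaa between CD4-CD8- cDC2 and CD8+ cDC1 was lost under 4 settings (adjusted p 0.560 to 0.702).

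The populations themselves differed in these genes, in each genotype. In WT, 20 of the 31 genes were called between CD4+ cDC2 and CD8+ cDC1, 12 higher and 8 lower in CD4+ cDC2, beside 45.6% of all genes (22.6% higher, 23% lower). Between CD4-CD8- cDC2 and the same CD8+ cDC1 libraries, 10 were higher and 10 lower, beside 42.9% of all genes (21.9% higher, 21% lower). Ppt1 and Gusb were lowest in cDC2 relative to CD8+ cDC1. Ppt1 had 121, 129.6 and 121 CPM in WT CD4+ cDC2 and 295, 252 and 291 CPM in WT CD4-CD8- cDC2, against 2744, 2921 and 2700.3 CPM in WT CD8+ cDC1. No library of either cDC2 population came near those of CD8+ cDC1 (log2 fold change -4.50 for CD4+ cDC2 and -3.32 for CD4-CD8- cDC2). Gusb had 76.4, 85.5 and 83.8 CPM in WT CD4+ cDC2 and 111, 114 and 113 CPM in WT CD4-CD8- cDC2, against 784, 940.2 and 772 CPM in WT CD8+ cDC1, with the same order (-3.34 and -2.88). In WT cells, Arsb came next in CD4+ cDC2 (log2 fold change -2.28), and Psap in CD4-CD8- cDC2 (-1.55).

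Gla, Tfeb and Lamp1 were the genes most in excess in WT cDC2. Gla had 43.8, 28.2 and 24.8 CPM in WT CD4+ cDC2 and 23.0, 18.0 and 16.4 CPM in WT CD4-CD8- cDC2, against 9.92, 10.0 and 8.46 CPM in WT CD8+ cDC1 (1.77 and 1.01). Tfeb had 153, 164 and 147 CPM in WT CD4+ cDC2 and 105, 120.3 and 99.7 CPM in WT CD4-CD8- cDC2, against 47.3, 44.4 and 47.4 CPM in WT CD8+ cDC1 (1.74 and 1.23). Both genes were thus highest in CD4+ cDC2 and lowest in CD8+ cDC1. Lamp1 had 367, 361 and 337 CPM in WT CD4+ cDC2 and 312, 367 and 314 CPM in WT CD4-CD8- cDC2, against 156, 160.1 and 181 CPM in WT CD8+ cDC1 (1.10 and 1.00), and its cDC2 populations overlapped. Within cDC2, 8 genes differed between CD4+ cDC2 and CD4-CD8- cDC2 in WT, 5 higher and 3 lower, beside 16.7% of all genes (7.12% higher, 9.63% lower). Gla (log2 fold change 0.75, adjusted p = 0.0182), Lipa (0.51, adjusted p = 4.37e-04) and Tfeb (0.51, adjusted p = 0.00513) were highest in CD4+ cDC2, and Ppt1 (-1.18, adjusted p = 3.54e-06), Arsb (-1.03, adjusted p = 1.99e-05) and Gusb (-0.46, adjusted p = 0.00163) were lowest. Lipa had 309, 304 and 303 CPM in CD4+ cDC2 and 207, 228 and 207 CPM in CD4-CD8- cDC2, and did not overlap. The call for Gla within cDC2 was lost without WT CD4+ replicate 1 (0.47, adjusted p = 0.126), WT CD4-CD8- replicate 2 (0.70, adjusted p = 0.0626) or WT CD4-CD8- replicate 3 (0.64, adjusted p = 0.0943), and the calls for Gla, Tfeb and Lipa were lost under 2 to 5 of the 10 settings (adjusted p 0.0515 to 0.363).

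In KO, 27 of the 31 genes were called between CD4+ cDC2 and CD8+ cDC1, 19 higher and 8 lower in CD4+ cDC2, beside 50.8% of all genes (25.7% higher, 25.1% lower). Lamp1 (log2 fold change 2.99, adjusted p = 6.48e-12), Atp6v0a1 (2.27, adjusted p = 1.79e-11) and Tpp1 (1.94, adjusted p = 3.26e-10) were most in excess in KO CD4+ cDC2. Ppt1 (-4.55, adjusted p = 3.29e-13) and Gusb (-2.48, adjusted p = 2.88e-12) were far lower than in CD8+ cDC1. In CD4-CD8- cDC2, 16 were higher and 9 lower than in the same CD8+ cDC1 libraries, beside 46.6% of all genes (24.3% higher, 22.3% lower). The call for Atp6v1h there (-0.24, adjusted p = 0.0492) was lost under each of the 10 settings (adjusted p 0.0510 to 0.741), among them the replicate block (-0.23, adjusted p = 0.0528). Within KO cDC2, 8 genes were higher and 4 lower in CD4+ cDC2 than in CD4-CD8- cDC2, beside 7.95% of all genes (3.16% higher, 4.79% lower), with the largest excesses for Gla (0.77, adjusted p = 0.0345) and Lipa (0.76, adjusted p = 3.03e-05). The call for Lipa was made under all 10 settings and without each library. The call for Gla was lost without KO CD4+ replicates 2 or 3 or KO CD4-CD8- replicates 1 or 3 (log2 fold changes 0.63 to 0.74, adjusted p 0.111 to 0.128) and under 5 of the 10 settings (adjusted p 0.0743 to 0.651), and its value was 0.29 to 0.43 under the 4 that use transcript length.

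**Figure D4:**
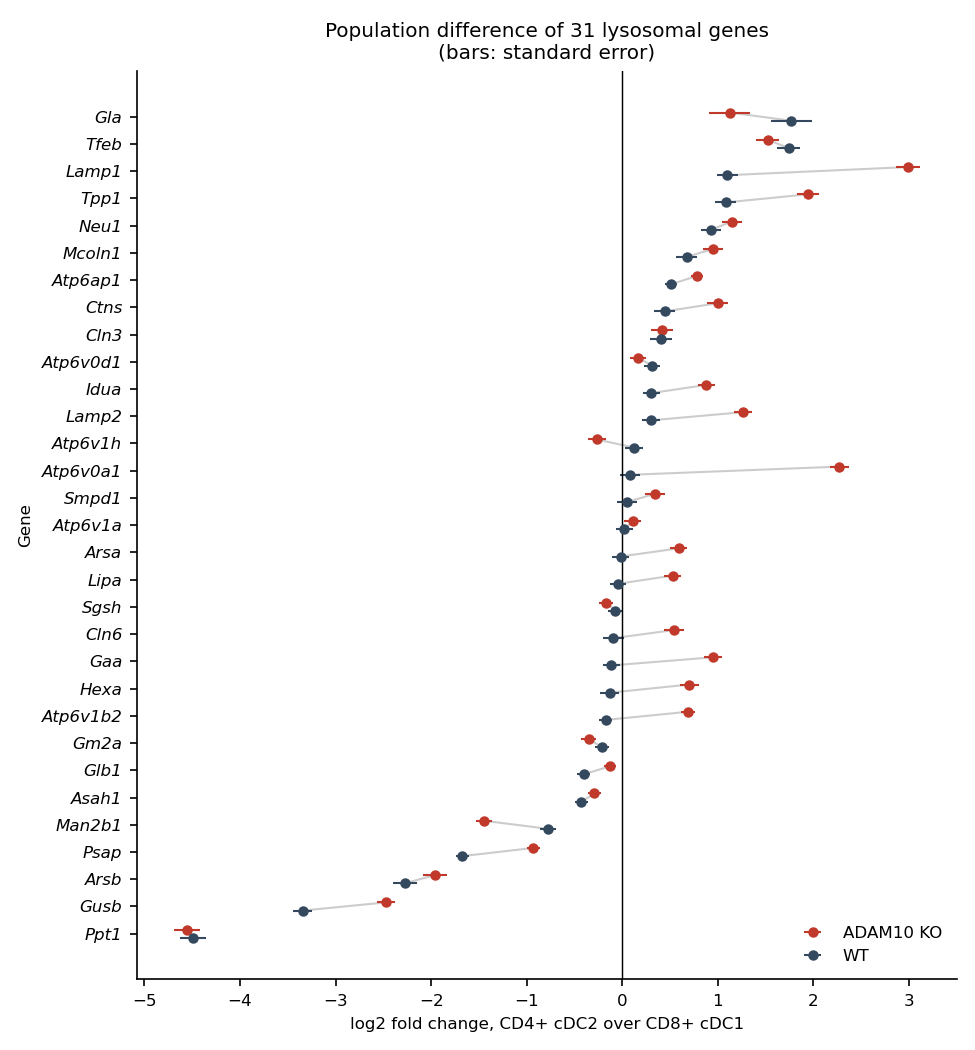
Log2 fold change of CD4+ cDC2 over CD8+ cDC1 with its SE for the 31 genes, KO and WT beside each other. Lamp1 lies at 2.99 in KO and 1.10 in WT, and Ppt1 lies at the low end of both genotypes.

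Beyond the 31 genes, 127 other gene names linked to the lysosome were followed in 5 lists, and 120 of them were tested. The names Tmem55a and Tmem55b were absent from the deposited tables. The lists also hold genes whose products work outside the lysosome, such as the peptidase gene Tpp2. In CD4+ cDC2 53 rose and 13 fell, in CD4-CD8- cDC2 41 rose and 6 fell, and in CD8+ cDC1 13 rose and 23 fell. That is 44.2% higher and 10.8% lower in CD4+ cDC2, where 18.5% and 16.6% of all genes were called, 34.2% and 5% in CD4-CD8- cDC2 (14.6% and 11.3% of all genes), and 10.8% and 19.2% in CD8+ cDC1 (7.01% and 8.68%). The medians of their log2 fold changes were 0.23, 0.19 and -0.025. Of 13 further V-ATPase genes, 4 rose and 3 fell in CD4+ cDC2, 4 rose in CD4-CD8- cDC2, and 1 rose and 1 fell in CD8+ cDC1. In CD4+ cDC2 that was 30.8% higher and 23.1% lower of 13 genes. Atp6v0a2, a paralog of Atp6v0a1, rose in each population (log2 fold changes 0.62, 0.46 and 0.36). Tcirg1, which encodes the a3 subunit, fell in CD4+ cDC2 (-0.24), as did Atp6v1d (-0.45). With the members included, 19 V-ATPase genes were tested, of which 7 rose and 6 fell in CD4+ cDC2.

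Of 34 further hydrolases and cofactors, 20 rose and 3 fell in CD4+ cDC2, 16 rose and 2 fell in CD4-CD8- cDC2, and 5 rose and 6 fell in CD8+ cDC1. The exonuclease gene Pld3 averaged 97.0 ± 10.7 CPM in KO and 12.9 ± 1.27 CPM in WT CD4+ cDC2 (log2 fold change 2.91). Galc, the galactosylceramidase, rose in CD4+ cDC2 (1.66) and CD4-CD8- cDC2 (1.20). Naaa, an amidase that is also in the cDC1 marker list, rose in all 3 populations (2.01, 1.31 and 0.91). Acp5, the tartrate-resistant acid phosphatase, averaged 50.8 ± 6.84 CPM in KO and 213 ± 22.6 CPM in WT CD4+ cDC2 and fell in each population (-2.06, -1.66 and -1.46). Lgmn, the asparaginyl endopeptidase, fell in each as well (-0.36, -0.49 and -1.77).

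Of 35 further membrane proteins and transporters, 21 rose and 1 fell in CD4+ cDC2, 17 rose and 1 fell in CD4-CD8- cDC2, and 5 rose and 12 fell in CD8+ cDC1. The tetraspanin gene Cd63 averaged 144 ± 39.0 CPM in KO and 43.8 ± 5.00 CPM in WT CD4+ cDC2 (log2 fold change 1.72), and 17.4 ± 1.33 CPM in KO and 50.2 ± 5.79 CPM in WT CD8+ cDC1 (-1.53). It therefore ran in opposite directions in these populations, as Lamp1 did. Npc2, the soluble cholesterol carrier, rose in all 3 (1.53, 1.21 and 0.85). Among 24 genes of the TFEB family and lysosomal nutrient sensing, 5 rose and 3 fell in CD4+ cDC2, 4 rose in CD4-CD8- cDC2, and 1 rose and 2 fell in CD8+ cDC1. These shares (20.8% higher and 12.5% lower in CD4+ cDC2) lay near those of all genes. Mitf, a relative of Tfeb, averaged 15.1 ± 1.02 CPM in KO and 4.18 ± 0.677 CPM in WT CD4+ cDC2 (1.84) and rose in CD4-CD8- cDC2 (1.14), while Tfeb itself fell in both. Fnip2, a partner of folliculin, rose in CD4+ cDC2 (1.5005) and CD4-CD8- cDC2 (1.27).

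Of 14 genes that sort lysosomal proteins, 3 rose and 3 fell in CD4+ cDC2, 3 fell in CD4-CD8- cDC2, and 1 rose and 2 fell in CD8+ cDC1. The shares in CD4+ cDC2 (21.4% in each direction) lay near those of all genes. Igf2r, the large mannose 6-phosphate receptor, averaged 6.69 ± 0.473 CPM in KO and 0.259 ± 0.0671 CPM in WT CD4+ cDC2 (log2 fold change 4.68). In CD4-CD8- cDC2 it averaged 5.13 ± 0.663 CPM in KO and 10.2 ± 1.78 CPM in WT cells (-0.996), and in CD8+ cDC1 64.0 ± 6.47 CPM in KO and 40.1 ± 8.50 CPM in WT cells (0.67). Cln8, which works with Cln6 in moving enzymes out of the endoplasmic reticulum, fell in each population (-1.56, -1.21 and -0.32), whereas Cln6 rose in each.

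**Figure D5:**
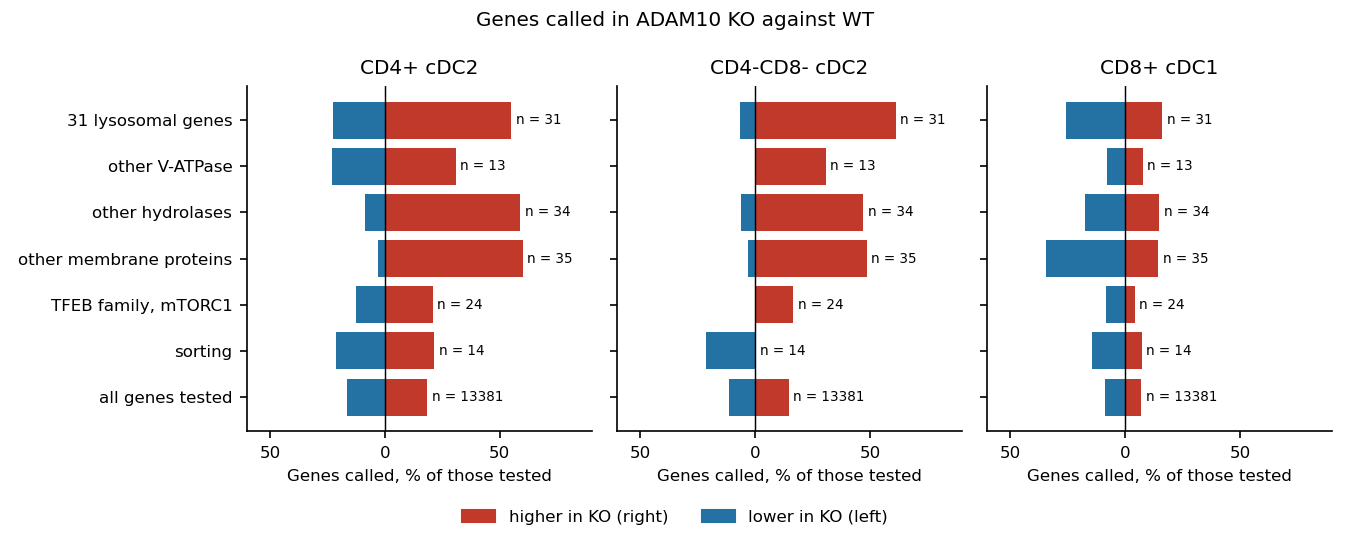
Percent of tested genes called higher (right) and lower (left) in KO than in WT for the 31 genes, the 5 further lysosomal lists and all genes tested, in each population. In CD4+ cDC2, 54.8% of the 31 genes and 18.5% of all genes were called higher.

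Genes with and without the core of the TFEB element in the promoter moved in both directions. In CD4+ cDC2, 4 of the 10 genes with a core rose and 3 fell, and 12 of the 18 without a core rose and 3 fell. In CD4-CD8- cDC2, 4 rose and 1 fell among the 10, and 13 rose and 1 fell among the 18. In CD8+ cDC1, 1 rose and 3 fell among the 10, and 4 rose and 5 fell among the 18. Lamp1 and Gla, with 4 and 2 cores in the stretches shown, ran in opposite directions in cDC2. These counts are a description of this window and were not made over all genes. Whether TFEB acts on these genes was not tested.

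Some members share reads or annotation with other genes. Whether quantification used strand is not stated, so Ppt1 and Cap1, Cln3 and Apobr, and Idua and Dgkq, which overlap on opposite strands, cannot be told apart where they overlap. Ppt1 averaged 17266 estimated counts per library and Cap1 7984, Cln3 averaged 471 and Apobr 1487, and Idua averaged 338 and Dgkq 105. Glb1 and Tmppe overlap on the same strand, with 637 and 106 estimated counts. The values of these 4 members are uncertain to that extent.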

How the data were processed

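RNA from 18 libraries of sorted splenic cDC was sequenced. Per the labels' protocols, poly(A) RNA was selected and read as single ends. FastQC 0.11.8, Salmon 0.14.1 and the build GRCm38 are named in the submitters' processing notes, with no order or settings. The authors deposited estimated counts per transcript (117135 transcripts), which are fractional because Salmon divides reads among similar transcripts, and TPM (84086 transcripts), scaled by the authors within each library for length and total.

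Transcripts were summed per gene by the deposited gene names. Another 152 had none, of which 37 were filled from GENCODE M21 and 115 left out (at most 0.16% of a library). Estimated counts were rounded, filtered with filterByExpr of edgeR 4.0.16 (R 4.3.3), which left 13381 of 24614 genes, and scaled by TMM. CPM are from TMM-scaled library sizes, and TPM were used for levels between genes. All 18 libraries entered 1 model, with a mean for each of the 6 groups and 12 residual degrees of freedom. The quasi-likelihood F test was two-sided, with Benjamini-Hochberg adjustment over all 13381 genes. Calls were made at adjusted p under 0.05. Each SE is the size of the log2 fold change over the root of F. There were 12 comparisons: KO against WT in 3 populations, 3 population differences in each genotype, and 3 interactions. Scripts were tested on simulated data.

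The members, gene lists and tests were chosen with earlier results of these data known. Values per library are given for up to 5 called members per direction and genotype comparison, up to 3 per direction for WT population differences and interactions, and always for Lamp1, Lamp2, Tfeb, Mcoln1, Atp6v0d1 and Psap. A few further members are given per library. From each further list, up to 3 called genes per direction and population with the largest change could be named. Motif stretches were taken for called members with an 8-letter motif, by largest change.

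Alternatives were RLE size factors, DESeq2 1.42.0, no low-count filter, limma 3.58.1 on log2(TPM + 1) and log2(TPM + 0.1), an offset for effective length, the compared groups alone, a replicate block, and each library left out. A block within genotype and limma on log2(TMM-scaled TPM + 1) were added after seeing the data. Same-numbered libraries deviated together over genes in KO CD4+ cDC2 and KO CD8+ cDC1 (r of 0.15, 0.18 and 0.18). They also did in KO CD4-CD8- cDC2 and KO CD8+ cDC1 (0.25, 0.22 and 0.26). The r was positive but less even between the KO cDC2 populations (0.21, 0.06 and 0.10). In WT it was positive for CD4+ cDC2 and CD8+ cDC1 (0.05, 0.15 and 0.12), for both cDC2 populations (0.10, 0.09 and 0.20), and for CD4-CD8- cDC2 and CD8+ cDC1 (0.08, 0.08 and 0.17). The r of differently numbered libraries was not computed, so whether the numbers pair populations within a genotype is not settled. The main test has no term for the number. The labels do not say what a number shares.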

Additional observations from a re-analysis of the deposited data

Results flagged for a closer look

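The effect of the genotype (log2 fold change of KO over WT) differed between populations for the genes below by a test of the difference itself, edgeR's quasi-likelihood test of the interaction. Values are differences of log2 fold changes. For CD4+ cDC2 minus CD8+ cDC1, 16 were positive: Atp6v0a1 (2.19), Lamp1 (1.89), Gaa (1.07), Lamp2 (0.96), Gusb (0.87), Atp6v1b2 (0.87), Tpp1 (0.86), Hexa (0.83), Psap (0.74), Cln6 (0.63), Arsa (0.61), Idua (0.58), Lipa (0.57), Ctns (0.55), Glb1 (0.28) and Atp6ap1 (0.27). The 2 negative differences were those of Atp6v1h (-0.39) and Man2b1 (-0.68). For CD4-CD8- cDC2 minus CD8+ cDC1, all 15 were positive: Atp6v0a1 (1.89), Lamp1 (1.44), Gaa (0.91), Gusb (0.82), Tpp1 (0.82), Lamp2 (0.80), Ctns (0.76), Atp6v1b2 (0.55), Arsa (0.53), Smpd1 (0.52), Idua (0.50), Hexa (0.50), Atp6ap1 (0.37), Asah1 (0.36) and Glb1 (0.36). For CD4+ cDC2 minus CD4-CD8- cDC2, they were Man2b1 (-0.52) and Psap (0.49).

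Adjusted p ran from 3.41e-08 for Atp6v0a1 to 0.0451 for Atp6ap1 in the first set, from 4.37e-07 for Atp6v0a1 to 0.0304 for Smpd1 in the second, and were 0.00801 for Psap and 0.0193 for Man2b1 in the third. Psap, Hexa and Cln6 rose in KO cells of all 3 populations in the main test, and their differences in the first set lie between effects of the same sign. Their calls in CD8+ cDC1 did not hold under every alternative. Lamp1, Atp6v0a1, Gaa and Tpp1 rose in KO cDC2 and fell in KO CD8+ cDC1 in the main test. In CD4-CD8- cDC2, Gaa ran the other way on TPM without TMM, and Tpp1 lost its call whichever library was left out. The difference between CD4+ cDC2 and CD8+ cDC1 was not called for Glb1 without KO CD4+ replicate 1, WT CD4+ replicates 1, 2 or 3, KO CD8+ replicates 2 or 3, or WT CD8+ replicates 1, 2 or 3 (log2 fold changes 0.21 to 0.29, adjusted p 0.0537 to 0.111), for Atp6ap1 without KO CD4+ replicates 1, 2 or 3, WT CD4+ replicates 1, 2 or 3, KO CD8+ replicates 1 or 2, or WT CD8+ replicates 1 or 3 (log2 fold changes 0.23 to 0.29, adjusted p 0.0551 to 0.107), or for Ctns without WT CD8+ replicate 3 (0.46, adjusted p = 0.0529). Between CD4-CD8- cDC2 and CD8+ cDC1 it was not called for Hexa without KO CD4-CD8- replicates 2 or 3, WT CD4-CD8- replicates 1 or 3, KO CD8+ replicate 3, or WT CD8+ replicates 2 or 3 (log2 fold changes 0.43 to 0.49, adjusted p 0.0529 to 0.0770), for Smpd1 without KO CD4-CD8- replicates 2 or 3, WT CD4-CD8- replicate 2, KO CD8+ replicates 1, 2 or 3, or WT CD8+ replicates 2 or 3 (log2 fold changes 0.43 to 0.54, adjusted p 0.0503 to 0.0840), for Glb1 without WT CD4-CD8- replicates 2 or 3 (log2 fold changes 0.32 to 0.33, adjusted p 0.0501 to 0.0503), or for Atp6ap1 without WT CD4-CD8- replicate 3 (0.30, adjusted p = 0.0554).

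Other settings ended some of these calls too. In the first set, 12 of the 18 were called under all 10 alternatives. Under the 4 settings that use transcript length, Ctns came to 0.037 to 0.099 (adjusted p 0.849 to 0.939), Idua to 0.28 to 0.38 (adjusted p 0.557 to 0.643) and Gaa to 0.46 to 0.58 (adjusted p 0.343 to 0.402). Glb1 (0.19 to 0.27, adjusted p 0.118 to 0.288) and Atp6ap1 (0.25 to 0.32, adjusted p 0.0886 to 0.296) were each not called under 6 settings, and Atp6v1h was not called under 4 (-0.45 to -0.40, adjusted p 0.0568 to 0.109). In the second set, 5 of the 15 were called under all 10 alternatives: Atp6v0a1, Lamp1, Gusb, Tpp1 and Lamp2. The other 10 were each not called under 4 to 6 settings (adjusted p 0.0525 to 0.709), where Gaa came to 0.28 to 0.36, Arsa to 0.22 to 0.49, Smpd1 to 0.23 to 0.52, Glb1 to 0.19 to 0.32 and Idua to 0.28 to 0.47. No explanation was tested.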

How the results depend on the processing

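Counts of the 31 genes and of all genes called were recomputed under 10 alternatives. Of the log2 fold changes of the 31 genes, 3336 kept their side of the threshold, 319 lost the call, 53 gained one and 12 reversed. A reversal was counted only where a call was made in either setting. The 3336 can therefore include uncalled values that changed sign. Counts differed from those reported by over 1.5 times mainly where transcript length entered, and the cause was not tested. Counts are given below as all genes and, where so marked, as members (of the 31).

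On log2(TPM + 1), KO against WT in CD4-CD8- cDC2 gave 11 members (reported 21), WT CD4+ cDC2 against CD4-CD8- cDC2 4 members (8), KO CD4+ cDC2 against CD4-CD8- cDC2 527 genes (1064) and 4 members (12). The interactions gave 1630 genes (2962) for CD4+ cDC2 and CD8+ cDC1, 1167 genes (1761) and 5 members (15) for CD4-CD8- cDC2 and CD8+ cDC1, and 1 member (2) within cDC2. On log2(TPM + 0.1) the same 8 counts were 11 members, 4 members, 546 genes, 4 members, 1634 genes, 971 genes, 5 members and 1 member, with 252 genes (503) for the interaction within cDC2. On log2(TMM-scaled TPM + 1), KO against WT gave 3124 genes (4692) in CD4+ cDC2 and 1322 genes (2099) and 5 members (13) in CD8+ cDC1. WT CD4+ cDC2 against CD4-CD8- cDC2 gave 1320 genes (2241) and 4 members, and KO CD4+ cDC2 against CD4-CD8- cDC2 592 genes and 7 members. The interactions gave 1924 genes for CD4+ cDC2 and CD8+ cDC1, 6 members for CD4-CD8- cDC2 and CD8+ cDC1, and 332 genes within cDC2. With the offset for effective length, KO against WT gave 3096 genes in CD4+ cDC2, 2180.0 genes (3471) and 13 members in CD4-CD8- cDC2, and 1395 genes and 5 members in CD8+ cDC1. WT CD4+ cDC2 against CD4-CD8- cDC2 gave 1262 genes and 4 members, and KO CD4+ cDC2 against CD4-CD8- cDC2 543 genes and 7 members. The interactions gave 1800.0 genes, then 903 genes and 5 members, and 193 genes. Without a low-count filter the interactions gave 9 members for CD4-CD8- cDC2 and CD8+ cDC1 and 1 member within cDC2. With the compared groups alone, KO against WT in CD8+ cDC1 gave 8 members, and KO CD4+ cDC2 against CD4-CD8- cDC2 628 genes and 5 members.

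Reversed values, in the order TPM + 1 and TPM + 0.1, were -0.20 and -0.21 for Gaa and -0.053 and -0.053 for Asah1 (KO against WT in CD4-CD8- cDC2). In the order TPM + 1, TPM + 0.1, TMM-scaled TPM and length offset, Gaa reversed to 0.62, 0.64, 0.43 and 0.46 for WT CD4-CD8- cDC2 against CD8+ cDC1, and to -0.22, -0.23, -0.16 and -0.14 for KO CD4+ cDC2 against CD4-CD8- cDC2. TPM without TMM shifted the median of all genes by -0.088, -0.182 and -0.125 in the KO against WT comparisons. On log2(TPM + 1), 72.7% of all calls were higher in WT CD4-CD8- cDC2 than in CD8+ cDC1 (51.1% as reported), 64.5% in KO CD4-CD8- cDC2 than in CD8+ cDC1 (52.1%), and 14.8% in WT CD4+ cDC2 than in CD4-CD8- cDC2 (42.5%). The interactions had 43.1% positive calls for CD4-CD8- cDC2 and CD8+ cDC1 (62.6%) and 89.2% within cDC2 (66.0%).

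Leaving out each library gave 3928 to 4350 genes and 22 to 24 members for KO against WT in CD4+ cDC2, 2683 to 3080 and 19 to 20 in CD4-CD8- cDC2, and 1541 to 2079 and 8 to 11 in CD8+ cDC1. In WT they gave 5298 to 5681 and 18 to 20 (CD4+ cDC2 against CD8+ cDC1), 4813 to 5336 and 18 to 20 (CD4-CD8- cDC2 against CD8+ cDC1), and 1525 to 2006 and 5 to 8 (within cDC2). In KO they gave 6189 to 6551 and 26 to 28, 5460 to 6109 and 21 to 24, and 671 to 959 and 7 to 11. The interactions gave 2504 to 2969 and 14 to 17, 1346 to 1735 and 12 to 16, and 309 to 542 and 1 to 4. Counts moved by over 1.5 times without KO CD4+ replicate 2 (671 genes, 7 members) or KO CD4-CD8- replicate 3 (676 genes) in KO cDC2, without WT CD4+ replicate 1 or WT CD4-CD8- replicate 3 (5 members each) in WT cDC2, and without KO CD8+ replicate 1 (8 members) in KO against WT CD8+ cDC1. In the interaction within cDC2 they moved without KO CD4+ replicate 1 (4 members) or 3 (1 member), WT CD4+ replicate 2 (309 genes, 1 member) or WT CD4-CD8- replicate 1 (317 genes, 1 member).

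With the replicate block, 25, 21 and 14 members were called between KO and WT. Same-numbered KO and WT libraries of the same population did not deviate together in every pair (r from -0.05 to 0.15), so the number was not treated as a pairing of the genotypes. For KO populations the replicate block gave 27, 24 and 12 members, and Atp6v1h in KO CD4-CD8- cDC2 against CD8+ cDC1 was the called member that it ended. For WT populations the replicate block gave 21, 20 and 8 members, and for the interactions 18, 16 and 2. A block within genotype gave 850 genes and 4 members for the interaction within cDC2. Whether depth limits the calls of low members was not tested.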

Other observations

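The gene values sum transcripts that Salmon separated from single-end reads, so the split within a gene is an estimate. By the authors' TPM, Lamp1, Hexa, Arsb and Gm2a consisted almost wholly of 1 transcript. Lamp2, whose isoforms differ in the cytosolic tail of the protein, was made up of Lamp2-202 (73.4% to 80.7% of the gene across the 6 groups) and Lamp2-201 (18.8% to 26.3%), and the share of Lamp2-201 was higher in both CD8+ cDC1 groups than in the cDC2 groups. Psap was split between Psap-203 (50.0% to 56.3%) and Psap-202 (40.6% to 47.0%), both coding.

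For several members much of the TPM went to transcripts that the annotation does not call coding. Gaa-206, a processed transcript, held 66.7% to 83.6% of Gaa, Arsa-201, with a retained intron, held 72.7% to 92.0% of Arsa, and Asah1-202, a target of nonsense-mediated decay, held 49.3% to 54.9% of Asah1. Atp6v0a1-206, a coding transcript, held 6.31% of Atp6v0a1 in KO and 37.3% in WT CD8+ cDC1, and 36.6% in KO and 32.4% in WT CD4+ cDC2. These shares were not tested.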
